A study of Drosophila melanogaster with 6 samples.

Results

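Autophagy delivers pieces of cytoplasm to the lysosome for breakdown. The Atg1 kinase complex starts the process and a class III phosphoinositide 3-kinase marks the growing membrane with lipid. A pair of ubiquitin-like conjugation systems then attaches Atg8 proteins to the membrane, and SNARE proteins, Rab7 and the HOPS tethering complex fuse the closed autophagosome with the lysosome, where cathepsins degrade the cargo. Striated muscle is known to need this pathway to clear damaged proteins and organelles, and fly body wall muscle is a common place to study it.

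The genes described here are 36 of the 17807 genes in the deposited table. They were chosen by symbol from a list of 37 genes with known roles in autophagosome initiation, conjugation, fusion and lysosomal breakdown. Vps34, the remaining listed gene, is not a symbol of the table; the same gene stands there as Pi3K59F and is given separately below without being counted. The table comes from bulk RNA sequencing of muscle-enriched lysates of Drosophila melanogaster larvae of the third instar, grown for about 90 h, with 7 to 10 larvae pooled in each library. All 6 libraries carry UAS-dcr2, which strengthens RNA interference, and the muscle driver Dmef2-Gal4. In 3 of them the driver expressed UAS-tmodRNAi against tmod, the gene of the actin filament capping protein tropomodulin (tmodRNAi). In the other 3, the controls, it expressed UAS-mCherryRNAi against a fluorescent protein gene that flies lack (mCherryRNAi). The driver is active in muscle, whereas the lysates also held RNA of other tissues. The tissue label names adult body wall, which goes against the larvae named elsewhere in the labels. In bulk tissue, fewer cells of a type and less RNA per cell cannot be told apart.

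The libraries held between 83824273 and 110151028 reads assigned to genes. The targeted gene tmod stood at 17.1% of the control mean in tmodRNAi (log2 fold change -2.54, limma, adjusted p = 0.00454). The control mCherryRNAi replicate 1 stood apart from the other controls. Its log2 values correlated across genes at 0.961 to 0.975 with the tmodRNAi libraries and at 0.956 to 0.969 with the other controls, which themselves correlated with the tmodRNAi libraries at 0.907 to 0.940. These correlations run over genes, which do not count as replicates, and only describe the libraries. Results are therefore given with and without that control.

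Autophagy and lysosome genes were lower in tmodRNAi at each step of the pathway. Atg8b was below the minimum mean of 10 normalized counts, and of the other 35 genes 23 fell and 0 rose at an adjusted p under 0.05 (limma on log2 of the normalized count plus 1). Over all 10969 genes tested, 12.9% fell and 10.9% rose by the same rule. The 23 genes stood at 39.8% to 78.4% of their control means, with log2 fold changes from -1.29 to -0.35. The median log2 fold change of the 35 genes was -0.54, beside 0.02 over all tested genes. Each tmodRNAi library was below each control for 28 of the 35 genes, against 26.4% of all tested genes. Each was above each control for 2 of the 35 genes, against 25.0% of all tested genes.

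The calls lay close to the threshold. Adjusted p-values of the 23 genes ranged from 0.0306 to 0.0493 by limma. Without mCherryRNAi replicate 1, 28 of the 35 genes fell and 1 rose, where 25.0% of all tested genes fell and 22.5% rose. That control was singled out after its correlation with the tmodRNAi libraries was seen, and without it calls became more frequent among all genes too. A pass without it, here and below, is therefore no separate support for a gene. Leaving out any other single library left 0 of the 35 genes past the threshold in limma. Over all tested genes, the fits with a library left out called 0 to 2739 lower and 0 to 2464 higher. On whole reads recovered from the deposited values, edgeR called 25 of the 35 genes lower and 0 higher (12.9% and 9.13% of all genes). DESeq2 called 27 lower and 1 higher (21.0% and 18.8% of all genes). Both count tools called all 23 of the genes called by limma. With quantile normalization 17 of the 23 passed in limma; the calls of Atg9, Atg18a, Atg18b, ref(2)P, Atg3 and Vps16A ended, at adjusted p-values of 0.0867, 0.0505, 0.0512, 0.0917, 0.0554 and 0.0586. For a single gene, an exact two-sided permutation test of 3 libraries against 3 cannot give a p-value below 0.1.

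**Figure D1:**
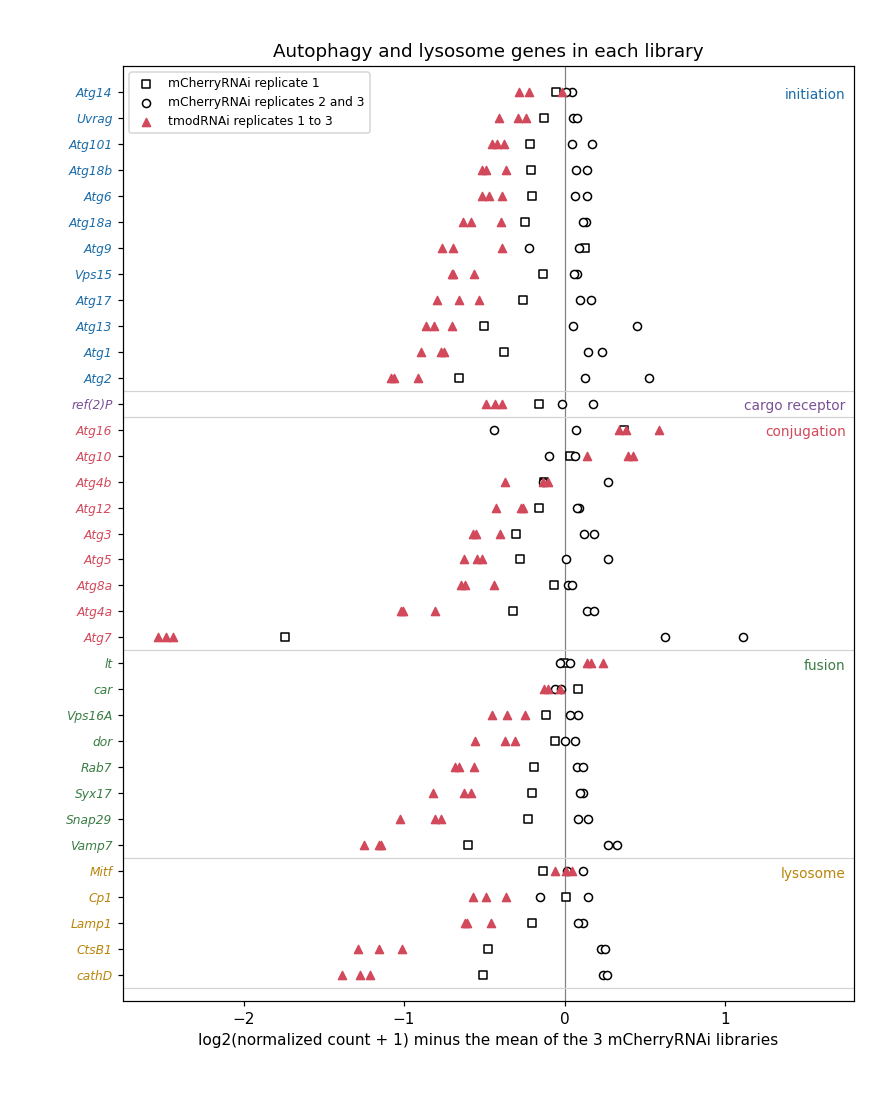
Level of each of the 35 tested genes in each of the 6 libraries, as log2(normalized count + 1) minus the mean of the 3 mCherryRNAi libraries; genes are grouped by step, squares mark mCherryRNAi replicate 1, circles the other controls and triangles tmodRNAi. The triangles lie left of all controls for 28 genes, and the square is the lowest control for 28 genes.

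The initiation step was examined first. All 12 genes found had log2 fold changes below 0, with a median of -0.58, and 8 of the 12 fell. Over all tested genes the median was 0.02 and 12.9% fell. Atg1 encodes the protein kinase at the head of the pathway. In the order of the replicate numbers, which is kept below, the controls held 4277, 6532 and 6140.3 normalized counts and the tmodRNAi libraries 3254, 3294 and 2983. The tmodRNAi libraries were close together and below the lowest control. Atg1 fell to 56.2% of the control mean (log2 fold change -0.81, SE 0.17, limma, adjusted p = 0.0329). Atg1 lies on the minus strand of chromosome arm 3L, from 12784429 to 12805116 in BDGP6.54.

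Of the partners of Atg1, Atg17 and Atg101 fell and Atg13 did not pass. Atg17, the fly counterpart of the scaffold FIP200, had 10077, 13534 and 12892 normalized counts in the controls and 8329, 7655 and 6966 in tmodRNAi. It fell by 0.66 on the log2 scale (SE 0.14, limma, adjusted p = 0.0322). Atg101, a small subunit that binds Atg13, had 1155, 1515 and 1386 in the controls and 1035, 981 and 1004 in tmodRNAi. The groups of Atg101 did not overlap, but the lowest control and the highest tmodRNAi library were close, and the fall of 0.42 on the log2 scale had the highest adjusted p of the 23 genes (0.0493, limma). Atg13, the regulatory subunit of the kinase, had 3242, 6279 and 4773 in the controls and 2820.5, 2527 and 2619.8 in tmodRNAi. Its controls differed by 0.95 on the log2 scale, and the log2 fold change of -0.79 did not pass (limma, adjusted p = 0.0552). Without mCherryRNAi replicate 1 it was -1.04 and passed (limma, adjusted p = 0.00154), and Atg13 also passed in DESeq2 (adjusted p = 0.00651) and with median centring in limma (adjusted p = 0.0442).

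The lipid kinase complex comprises Vps34, its regulatory partner Vps15, the beclin Atg6, and either Atg14 or Uvrag. Vps15 had 3679.9, 4273 and 4212 normalized counts in the controls and 2739.6, 2488 and 2493 in tmodRNAi. Controls and knockdowns each kept close together, and Vps15 fell to 63.5% of the control mean (log2 fold change -0.65, SE 0.09, limma, adjusted p = 0.0306). Atg6 had 1749, 2110.2 and 2227 in the controls and 1455, 1414 and 1540.3 in tmodRNAi, a fall of 0.46 on the log2 scale (limma, adjusted p = 0.038). The Vps34 gene, listed as Pi3K59F, had 1902, 1969 and 2141 in the controls and 1569.8, 1319 and 1397 in tmodRNAi and fell by 0.49 (limma, adjusted p = 0.031). The subunits that decide where the complex acts did not pass. Atg14, which directs the kinase to the forming autophagosome, had 2015, 2164 and 2105 in the controls and 2066, 1795 and 1718 in tmodRNAi, so the groups overlapped (log2 fold change -0.18, limma, adjusted p = 0.191). Uvrag, which takes its place on endosomes, had a log2 fold change of -0.31 (limma, adjusted p = 0.0564), and an antisense RNA overlaps 600 of its 2520 exon bases. Its groups did not overlap, and Uvrag passed without mCherryRNAi replicate 1 (log2 fold change -0.38, limma, adjusted p = 0.0148), in DESeq2 (adjusted p = 0.0191) and, in limma, with median centring (adjusted p = 0.0447) and a minimum mean of 50 (adjusted p = 0.0485).

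The remaining initiation genes supply and shape membrane. Atg9 encodes a transmembrane lipid scramblase carried on vesicles. It had 19475, 15263 and 18981 normalized counts in the controls and 13592, 10468 and 11001 in tmodRNAi, and fell to 65.3% of the control mean (log2 fold change -0.62, SE 0.14, limma, adjusted p = 0.0369). In contrast to most of the genes, its lowest control was replicate 2 and not replicate 1. Atg2 encodes a lipid transfer protein and had the log2 fold change farthest from 0 in this step. Its normalized counts were 14003, 31823 and 24113 in the controls and 11723, 10425 and 10561 in tmodRNAi. The control replicates of Atg2 differed by 1.18 on the log2 scale, and the log2 fold change of -1.02 (SE 0.29) did not pass with all libraries (limma, adjusted p = 0.0518). Without mCherryRNAi replicate 1 it was -1.35 and passed (limma, adjusted p = 0.000698), and Atg2 also passed in edgeR (adjusted p = 0.0469), in DESeq2 (adjusted p = 0.00257) and, in limma, with median centring (adjusted p = 0.0434) and a minimum mean of 50 (adjusted p = 0.0495). The phosphoinositide-binding proteins Atg18a and Atg18b fell by 0.54 and 0.46 on the log2 scale (limma, adjusted p = 0.0385 and 0.0387). Atg18a had 8063, 10508 and 10361 in the controls against 7274, 6172 and 6382 in tmodRNAi. Atg18b had 3123, 3788 and 3984 against 2805, 2574 and 2530.4.

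The cargo receptor ref(2)P is the fly p62, which binds ubiquitin and Atg8 and is itself degraded by autophagy as a protein. Its normalized counts were 22426, 24831 and 28387 in the controls and 19114, 18568 and 17901 in tmodRNAi. The groups did not overlap, and ref(2)P transcript fell to 73.5% of the control mean (log2 fold change -0.44, SE 0.11, limma, adjusted p = 0.0385). The protein was not measured here.

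**Figure D2:**
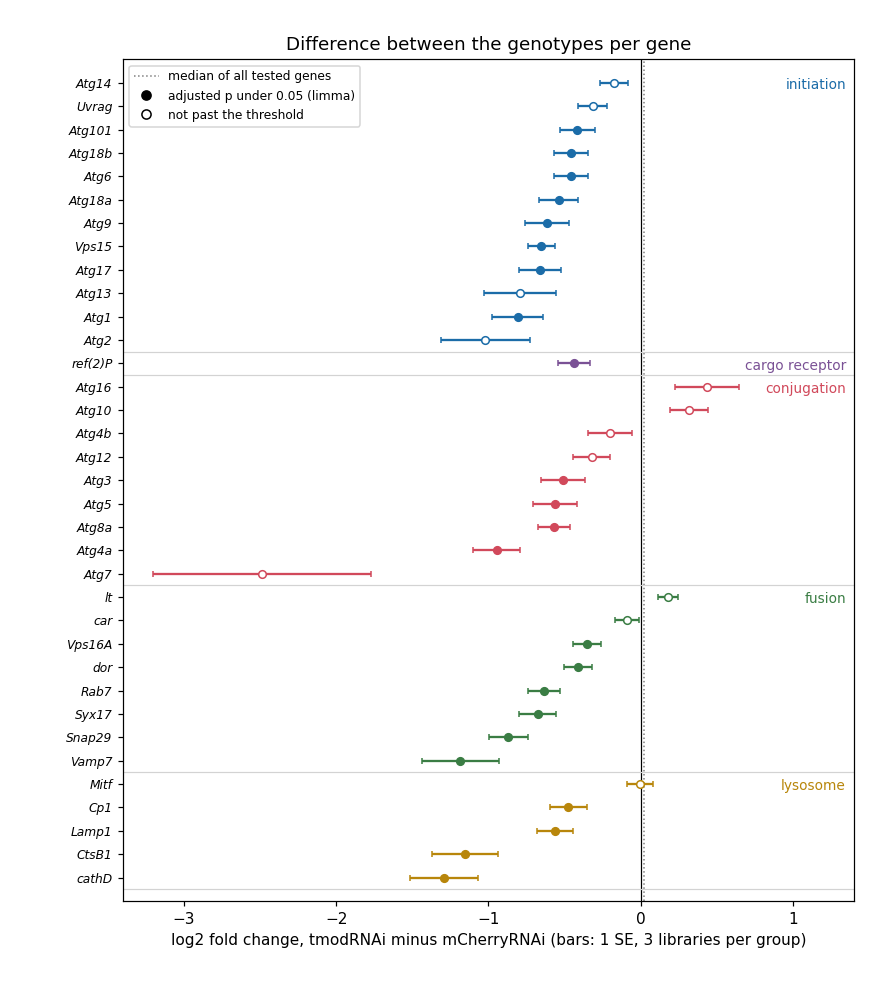
Log2 fold change of tmodRNAi against mCherryRNAi for the 35 tested genes, with bars of 1 SE from limma; filled points passed an adjusted p of 0.05 and open points did not, and the dotted line is the median of all 10969 tested genes. The 23 filled points lie between -1.29 and -0.35; the Atg7 bar is the longest, and Atg16, Atg10 and lt lie right of 0.

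The conjugation step was mixed. Of 10 genes, 9 were tested, 4 of these fell, 0 rose, and the median log2 fold change was -0.51. Over all tested genes 12.9% fell, 10.9% rose and the median was 0.02. Atg8a encodes the main fly ubiquitin-like protein that is joined to the autophagosome membrane, and per kb of exon its transcript had the highest level of the 36 genes, at 45677 normalized counts per kb in the controls. Its normalized counts were 73830.0, 78469 and 79970.5 in the controls and 57056, 50416 and 49382 in tmodRNAi. The controls of Atg8a lay close together, replicate 1 among them. Atg8a fell to 67.5% of the control mean (log2 fold change -0.57, SE 0.10, limma, adjusted p = 0.0306), and against mCherryRNAi replicate 1 alone the log2 difference was -0.50. Atg8a lies on the minus strand of the X chromosome, from 10764878 to 10768338 in BDGP6.54.

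Atg4a encodes a protease that processes Atg8 and releases it from membranes. Its normalized counts were 8782, 12084 and 12477 in the controls and 6269, 5467 and 5418 in tmodRNAi, a fall to 51.4% of the control mean (log2 fold change -0.94, SE 0.15, limma, adjusted p = 0.0306). CG4629 on the opposite strand overlaps 2098 of the 4078 exon bases of Atg4a, and no strand setting is given in the sources used here, so reads of both genes cannot be told apart. The related protease gene Atg4b overlapped between the groups (log2 fold change -0.20, limma, adjusted p = 0.314). Atg3, the enzyme that transfers Atg8 to lipid, had 4018, 5608 and 5374 in the controls and 3737, 3374 and 3327 in tmodRNAi, and fell by 0.51 on the log2 scale (limma, adjusted p = 0.049). Atg5, which is joined to Atg12, had 1505, 2208 and 1839 in the controls and 1249.6, 1185 and 1278 in tmodRNAi, and fell by 0.56 (limma, adjusted p = 0.0434). For both, replicate 1 was the control nearest to tmodRNAi.

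Atg7, which encodes the activating enzyme shared by both conjugation systems, had the log2 fold change farthest from 0 of all 35 genes and did not pass. Its normalized counts were 1788, 12921 and 9214 in the controls and 1065, 1030.2 and 1099 in tmodRNAi. The knockdown libraries were nearly equal, whereas the controls spanned 2.85 on the log2 scale, with replicate 1 far below the others. The mean of tmodRNAi was 13.4% of the control mean (log2 fold change -2.49, SE 0.72, limma, adjusted p = 0.0523). Without mCherryRNAi replicate 1 the log2 fold change was -3.36 (limma, adjusted p = 0.000115), while against that replicate alone the difference was -0.75. With all libraries Atg7 passed in both count tools and with median centring in limma (adjusted p = 0.0473). Atg7 lies on the minus strand of chromosome arm 2R, from 18620466 to 18625044 in BDGP6.54, and no other annotated exon overlaps it.

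The other genes of this step did not pass with all libraries. Atg12, the ubiquitin-like partner of Atg5, had a log2 fold change of -0.32 (limma, adjusted p = 0.0948). Atg12 passed without mCherryRNAi replicate 1 (log2 fold change -0.40, limma, adjusted p = 0.0379) and with quantile normalization (-0.49, limma, adjusted p = 0.0475). Atg10, the enzyme that joins these proteins, and Atg16, which holds the conjugate at the membrane, had log2 fold changes of 0.32 and 0.44 (limma, adjusted p = 0.106 and 0.158). Atg10 had 290.2, 297 and 265 normalized counts in the controls and 373, 312 and 381 in tmodRNAi, with no overlap, and 707 of its 1516 exon bases are shared with Dgk on the opposite strand. Atg16 had 6084, 3468 and 4939.8 in the controls and 7088, 6137 and 5941 in tmodRNAi. In Atg16, control replicate 1 was the highest control and lay within the tmodRNAi range; without it, Atg16 rose by 0.62 on the log2 scale (limma, adjusted p = 0.0252).

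Atg8b, the second Atg8 gene, is known mainly from the male germline. It was listed at 0 in the 3 controls and at 5.05, 21.3 and 4.41 normalized counts in tmodRNAi, below the minimum for testing. The tmodRNAi mean was 3.59 times a floor of 3 reads per control library, and 1.66 times without tmodRNAi replicate 2. These ratios are not lower bounds, because tmodRNAi values of so few reads carry counting error too. The testis marker ocn moved alike, from 1.96, 0 and 0 in the controls to 14.1, 51.1 and 13.2 in tmodRNAi, and tmodRNAi replicate 2 was highest for both genes. ocn is 1 of 8 listed testis markers and is named after its values were seen. Of the 8 markers 5 were tested and 2 rose (limma), with log2 fold changes from 0.076 to 3.96, where 10.9% of all tested genes rose. The part of testis RNA in the Atg8b values was not tested.

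The fusion step held 8 genes, of which 6 fell, with a median log2 fold change of -0.52. Over all tested genes 12.9% fell and the median was 0.02. The SNARE proteins Syx17, Snap29 and Vamp7 form the bundle that joins autophagosome and lysosome membranes, and all of their genes fell. Syx17 sits on the autophagosome; its gene had 1863, 2321 and 2294 normalized counts in the controls and 1432, 1219 and 1388 in tmodRNAi (log2 fold change -0.68, SE 0.12, limma, adjusted p = 0.0306). Snap29, the linking member, had 2441, 3152 and 3026 in the controls and 1676, 1631 and 1399 in tmodRNAi (log2 fold change -0.87, SE 0.13, limma, adjusted p = 0.0306). Vamp7, the lysosomal member, had 5669, 10786 and 10387 in the controls and 3882, 3613 and 3857 in tmodRNAi (log2 fold change -1.18, SE 0.25, limma, adjusted p = 0.0334). For Syx17 and Snap29 the controls lay within 0.37 on the log2 scale, while for Vamp7 they spanned 0.93.

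Rab7, the GTPase that marks late endosomes and lysosomes, had 23589, 28316 and 29114 normalized counts in the controls and 18183, 17007 and 16778 in tmodRNAi. It fell to 64.1% of the control mean (log2 fold change -0.64, SE 0.11, limma, adjusted p = 0.0306). The genes of the HOPS tether, several of which are known from eye colour mutants, were divided. dor, the fly Vps18, had 2568, 2681 and 2801 in the controls and 2167, 1819 and 2074 in tmodRNAi and fell by 0.41 on the log2 scale (limma, adjusted p = 0.0343). Vps16A had 2574, 2956 and 2863 against 2177, 2045 and 2356 and fell by 0.35 (limma, adjusted p = 0.0432). The other HOPS genes did not pass. Among them were Vps39 and Vps11, which were listed with the other pathway genes. Their log2 fold changes were -0.39 and -0.12 (limma, adjusted p = 0.0534 and 0.438). The groups overlapped for Vps11 and not for Vps39. car, the fly Vps33A, had 1587, 1434 and 1475 in the controls and 1469, 1391 and 1368 in tmodRNAi (log2 fold change -0.09, limma, adjusted p = 0.411). lt, the fly Vps41, was higher in each tmodRNAi library than in each control, with 5807, 5916 and 6209 against 5248, 5403 and 5168. The difference of 0.18 on the log2 scale did not pass in limma (adjusted p = 0.0815), but passed in DESeq2 (adjusted p = 0.0127) and with quantile normalization in limma (adjusted p = 0.0331).

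At the lysosome, 4 of 5 genes fell, against 12.9% of all tested genes. cathD encodes the aspartic protease cathepsin D. Its normalized counts were 48048, 80737 and 82132 in the controls and 28238, 26169 and 29469 in tmodRNAi, a fall to 39.8% of the control mean, the lowest share among the 23 genes that passed (log2 fold change -1.29, SE 0.22, limma, adjusted p = 0.0306). Against control replicate 1 alone the difference was -0.78 on the log2 scale. CtsB1, the cysteine protease cathepsin B, had 24805, 40395 and 41235 in the controls and 17146, 15509 and 14139.6 in tmodRNAi, and fell as well (log2 fold change -1.15, SE 0.22, limma, adjusted p = 0.0306). Cp1, named CtsL1 in BDGP6.54, encodes cathepsin L. It had 69816, 62373 and 76643 in the controls and 53815, 49488 and 46767 in tmodRNAi, and fell to 71.9% of the control mean (log2 fold change -0.47, SE 0.12, limma, adjusted p = 0.0414). Control replicate 1 lay between the other controls for Cp1 and below both for cathD and CtsB1. Lamp1, an abundant glycoprotein of the lysosomal membrane, had 34624, 43092 and 42210.3 in the controls and 28912, 25858 and 26098 in tmodRNAi (log2 fold change -0.56, SE 0.12, limma, adjusted p = 0.0322).

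Mitf encodes the single fly member of the MiTF/TFEB family, the transcription factors known to switch on lysosomal and autophagy genes. Its transcript had 6961, 7722 and 8260.1 normalized counts in the controls and 7663, 7315 and 7869 in tmodRNAi. The groups overlapped, and the means differed by less than the spread between controls, 7648 ± 653 against 7616 ± 280.1 (SD, n = 3 libraries each). The log2 fold change of Mitf was -0.0031 (SE 0.09, limma, adjusted p = 0.98). Its sign turned with quantile normalization and in both count tools. Activity or localization of the protein was not measured.

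Per kb of exon, the order of transcript levels in the controls was led by Atg8a, followed by cathD at 39409, Cp1 at 33693, Lamp1 at 25253, CtsB1 at 22257, Rab7 at 15886 and ref(2)P at 10528 normalized counts per kb. The kinase gene Atg1 stood at 1362 and Vps15 at 893 normalized counts per kb. These levels count all annotated exon bases of a gene. Lysosomal proteases and Lamp1 thus followed Atg8a directly. Initiation genes stood lower, led by Atg9 at 6321 normalized counts per kb. Genes of other steps stood low as well, such as Mitf at 1667 and car at 468, so the order did not follow the steps.

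**Figure D3:**
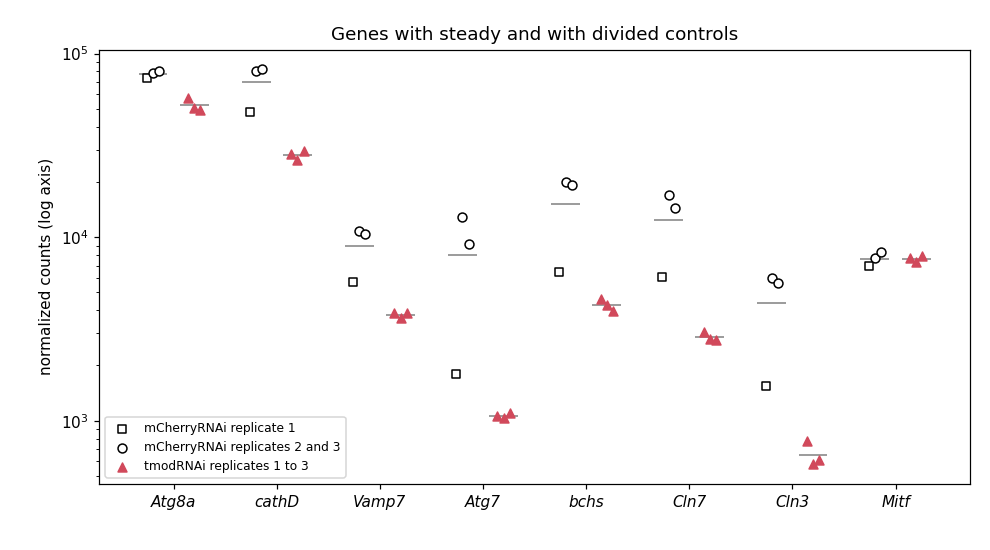
Normalized counts on a log axis for 8 genes in each library; squares are mCherryRNAi replicate 1, circles the other controls, triangles tmodRNAi, and grey lines the group means. The 3 controls of Atg8a and of Mitf lie together, whereas for Atg7, bchs, Cln7 and Cln3 replicate 1 lies well below the other controls and above the triangles.

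The differences among the controls were then described. mCherryRNAi replicate 1 was the lowest control for 28 of the 35 genes and for 44.1% of all tested genes. The controls spanned more than the tmodRNAi libraries on the log2 scale for 28 of the 35 genes and for 65.5% of all tested genes. For the 23 genes that fell, each tmodRNAi library was also below mCherryRNAi replicate 1. This is so for any gene whose groups do not overlap. The median share of the log2 difference left against this replicate alone was 0.63, from 0.41 to 1.21 over the 23 genes. The share was above 1 for Atg9 and Cp1, for which replicate 1 was not the lowest control. A comparison with 1 library has no replicate check.

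Other genes of the same pathway were listed by known role: 78 of 79 were found and 68 tested. Of these 25 fell and 2 rose (limma), against 12.9% and 10.9% of all tested genes, and their median log2 fold change was -0.27. Without mCherryRNAi replicate 1, 39 fell and 4 rose, against 25.0% and 22.5% of all tested genes. In the list for tethering and fusion, 8 of 16 fell and 0 rose. Plekhm1, an adaptor that links Rab7 to HOPS, fell from 4449 ± 527 to 2718 ± 108 normalized counts (SD, n = 3 each; log2 fold change -0.70, limma, adjusted p = 0.0306). Rab2, a GTPase known in flies to promote fusion with the lysosome, fell from 14940.0 ± 1307 to 10367 ± 321 (log2 fold change -0.52, limma, adjusted p = 0.0306). Arl8, the GTPase of lysosome transport, and the SNARE gene Vti1a fell by 0.56 and 0.67 on the log2 scale (limma, adjusted p = 0.0306 each). In Vti1a, 466 of 1370 exon bases are shared with RabX6 on the opposite strand.

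Among the listed lysosomal membrane and lipid genes, 5 of 11 tested fell and 1 rose, against 12.9% and 10.9% of all tested genes. Sap-r, the precursor of the saposins that help digest sphingolipids, fell from 215815 ± 48098 to 99327 ± 7624 normalized counts (SD, n = 3 each; log2 fold change -1.10, limma, adjusted p = 0.0306). Npc2a, a sterol carrier of the lysosome lumen, fell by 1.03 on the log2 scale (limma, adjusted p = 0.0306). Cln3 and Cln7 are fly counterparts of genes mutated in Batten disease, a lysosomal storage disorder. Cln3 had 1541, 5962 and 5617 in the controls and 773, 579.6 and 608 in tmodRNAi (log2 fold change -2.52, SE 0.53, limma, adjusted p = 0.0331). Cln7 had 6089, 16984 and 14359.8 in the controls and 3054, 2805 and 2742 in tmodRNAi (log2 fold change -1.99, SE 0.38, limma, adjusted p = 0.0306). As in Atg7, control replicate 1 lay far below the other controls: against it alone the log2 differences were -1.25 for Cln3 and -1.09 for Cln7. Without it, the log2 fold changes were -3.16 for Cln3 and -2.45 for Cln7.

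Of the 18 lysosomal hydrolase genes tested, 7 fell and 1 rose, against 12.9% and 10.9% of all tested genes. The beta-galactosidase gene Gal fell from 4923 ± 1208 to 2147 ± 238 normalized counts (SD, n = 3 each; log2 fold change -1.17, limma, adjusted p = 0.0306), although 1431 of its 2345 exon bases overlap other genes on the opposite strand. The cathepsin F gene, listed as CG12163, fell by 1.08, the mannosidase gene LManII by 0.86 and the thioesterase gene Ppt2 by 0.64 on the log2 scale (limma, adjusted p = 0.0306, 0.0344 and 0.034). The hydrolase gene that rose was DNaseII, from 158, 204 and 162 in the controls to 289, 805 and 595 in tmodRNAi (log2 fold change 1.57, limma, adjusted p = 0.0385). Npc2h, a relative of Npc2a, was the other listed gene that rose, from 15.7, 12.9 and 2.14 to 30.3, 101.2 and 92.6 (log2 fold change 2.90, limma, adjusted p = 0.0487). Its value in control replicate 3 is below the floor of 3 reads, 3.21 normalized counts in that library. DNaseII and Npc2h are named because only 2 genes rose, after their values were seen.

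In the list for phosphoinositides, membrane and selective autophagy, 4 of 9 fell and 0 rose. bchs, a large BEACH-domain protein for clearing protein aggregates, had 6444, 20092 and 19193 normalized counts in the controls and 4589, 4264 and 3978 in tmodRNAi (log2 fold change -1.67, SE 0.44, limma, adjusted p = 0.0447). Its control replicate 1 again lay near tmodRNAi, at a log2 difference of -0.59. The phosphatase gene mtm, needed for muscle remodelling in flies, stas and the inhibitor gene Rubicon fell by 0.48, 0.52 and 0.32 on the log2 scale (limma, adjusted p = 0.031, 0.0385 and 0.0377). Of the nutrient sensors at the lysosome surface and transcription factors, 1 of 14 (7.14%) fell and 0 rose, against 12.9% and 10.9% of all tested genes. This list thus held no larger share of calls than all genes did. Its log2 fold changes ran from -2.38 to 0.46, with a median of -0.11. The gene that fell was raptor, the scaffold of TOR complex 1, by 0.30 on the log2 scale (limma, adjusted p = 0.0385). Eip93F, an ecdysone-induced factor known to promote autophagy in larval tissues, had 32.3, 1951 and 137 in the controls and 31.3, 79.9 and 23.2 in tmodRNAi and did not pass (log2 fold change -2.38, limma, adjusted p = 0.251). Its controls spanned 5.87 on the log2 scale, and replicate 1 lay within the tmodRNAi range. Without that control 3 of the 14 fell and 1 rose (limma), again no larger a share than the 25.0% and 22.5% of all tested genes. Eip93F was then at -3.70 (limma, adjusted p = 0.042), raptor at -0.32, foxo at 0.61 and mio at -0.30 on the log2 scale.

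The other degradation machinery in the table was set beside these genes. Over all tested genes 12.9% were lower and 10.9% higher (limma). The 26S proteasome subunits had a median log2 fold change of -0.94, with 32 of 35 tested genes lower and 0 higher (limma). The vacuolar proton ATPase acidifies the lysosome, and its subunits were taken as the 22 genes with symbols of Vha followed by a digit. Any subunit with another form of symbol was left out. Of the 22 genes 14 were tested, with a median of -0.40, and 7 were lower and 1 higher. Control replicate 1 was the lowest control for all 35 proteasome genes and for 1 of the 14 proton ATPase genes, beside 28 of the 35 autophagy and lysosome genes. The difference between these lists was not tested, and nothing here is called particular to autophagy.

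**Figure D4:**
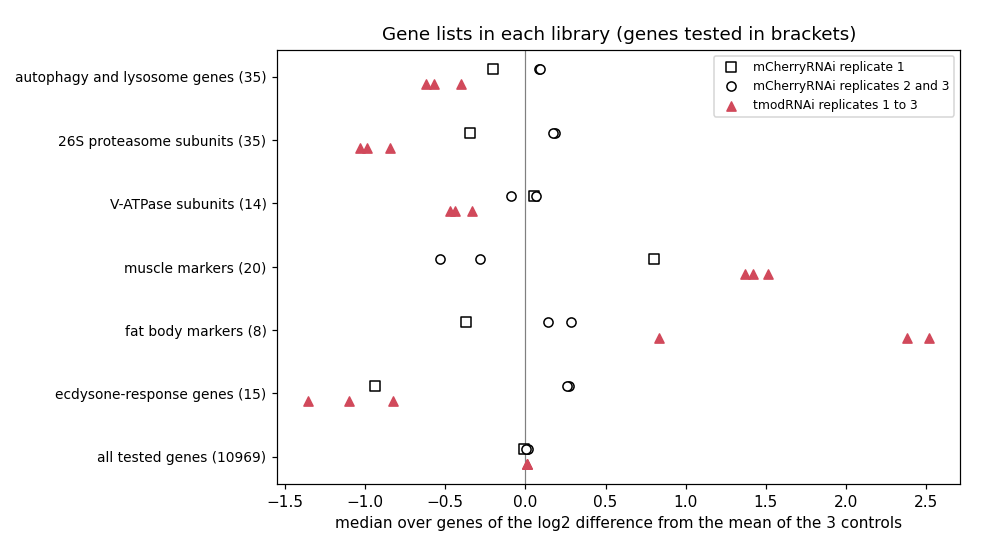
Median over the tested genes of each list of the log2 difference from the mean of the 3 controls, for each library; squares are mCherryRNAi replicate 1, circles the other controls and triangles tmodRNAi. Autophagy and lysosome genes stand at -0.20 in mCherryRNAi replicate 1 and between -0.62 and -0.40 in tmodRNAi, and the muscle markers at 0.80 and between 1.37 and 1.51.

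Tissue and timing lists were described over the same libraries. Relative to the control mean, the median of the autophagy and lysosome genes was -0.20, 0.09 and 0.09 on the log2 scale in the 3 controls and -0.40, -0.62 and -0.57 in the tmodRNAi libraries. The muscle markers were at 0.80, -0.54 and -0.28 in the controls and at 1.37, 1.42 and 1.51 in tmodRNAi. Where 10.9% of all tested genes rose and 12.9% fell (limma), 11 of these 20 markers rose and 0 fell. Their summed level was 3127544 to 8893769 normalized counts in the controls and 13486083 to 15096742 in tmodRNAi. The ecdysone-response genes were at -0.94, 0.27 and 0.26 in the controls and at -0.82, -1.10 and -1.35 in tmodRNAi; 4 of 15 fell and 1 rose (limma), and their summed level was 314943 to 547732 and 161069 to 229013. Control replicate 1 thus lay on the tmodRNAi side in these lists, but not in every tissue list. In the fat body and salivary gland lists it was the lowest control, at -0.37 and -0.88. There the tmodRNAi libraries stood higher, at 0.83 to 2.52 for fat body and -0.17 to 3.43 for salivary gland. The part of tissue composition or developmental timing in the results was not tested.

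Markers of further tissues gave these values, beside 10.9% of all tested genes that rose and 12.9% that fell (limma). Fat body markers rose for 4 of 8 genes, and their summed level was 168067 to 269337 normalized counts in the controls and 306852 to 985600.3 in tmodRNAi. Of the hemocyte markers, 2 of 9 rose and 3 fell, with sums of 195291 to 250319.8 in the controls and 269394 to 340014.7 in tmodRNAi. The epidermis and cuticle markers held 1 of 10 that rose and 1 that fell, and neuron markers 1 of 9 that rose and 0 that fell. These counts are near the shares over all genes and are not read as shifts of those markers. Epidermis sums were 6174140 to 14264312 in the controls and 10004080.2 to 12137663 in tmodRNAi, which overlap. Neuron sums were 9603 to 14267 and 14392 to 18852, and testis sums 149 to 176 and 237 to 584, with 2 of 5 tested testis genes higher. No midgut (6 tested) or salivary gland (8 tested) marker passed, with sums of 55.6 to 857 and 235 to 627 for midgut and 249 to 935 and 598 to 3511 for salivary gland. No marker of any list was at 0 in all 6 libraries. The part of these tissues in the levels of the autophagy and lysosome genes was not tested.

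**Figure D5:**
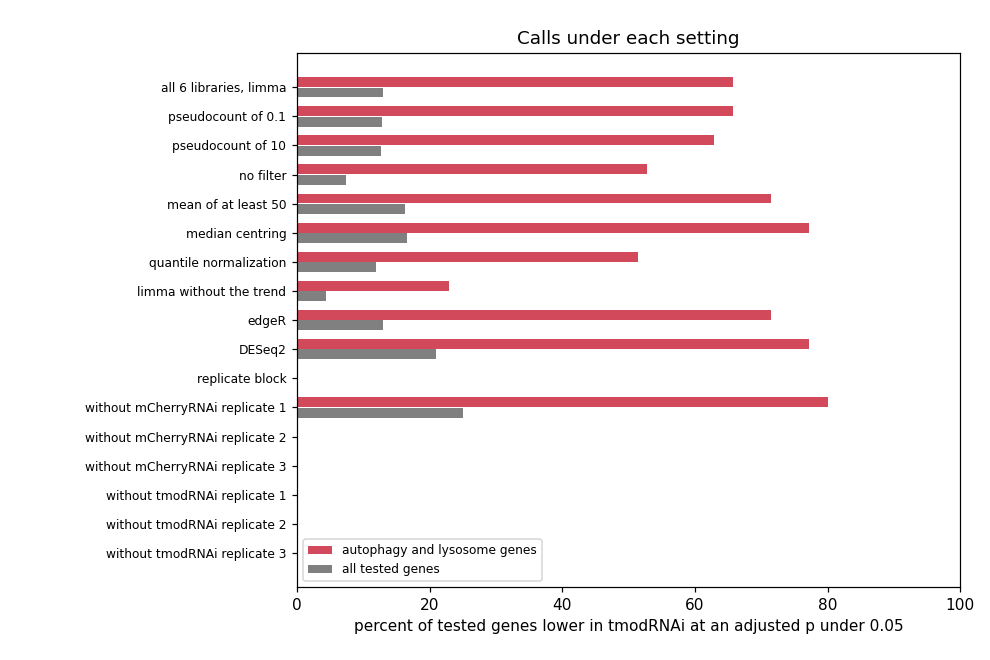
Percent of tested genes that were lower in tmodRNAi at an adjusted p under 0.05 under each setting, for the autophagy and lysosome genes (red) and for all tested genes (grey); bars start at 0. The share among these genes (35 tested, 36 without a filter) is above that of all genes wherever any of them was called, and 0 pass in the replicate block and in 5 of the 6 fits that leave out a library.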

How the data were processed

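The authors deposited 1 table of normalized counts, a signal that is never negative: reads per gene, each library scaled by a single factor. Genome build dm6 and DESeq2 1.30.1 are named in the submitters' processing notes; the aligner, counting tool, annotation and strand setting are not given in the sources used here. The values of each column were whole multiples (tolerance 0.001) of 1 step per library, and dividing by it gave whole reads for 100.0% of values in each library. The criterion for accepting such recovered reads was met by 5 libraries and not by tmodRNAi replicate 1, whose step of 1.01 is too close to 1; the count tools used all 6. The 6 libraries held 83824273 to 110151028 reads; floors of 3 reads cover counting error only.

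The 10969 of 17807 genes whose mean reached 10 normalized counts were compared on log2(normalized count + 1) with limma 3.58.1 (trended prior) in R 4.3.3, with Benjamini-Hochberg adjustment over all tested genes and a threshold of 0.05. A fold change is the difference between group means on this scale and is understated for low genes. edgeR 4.0.16 and DESeq2 1.42.0 on recovered reads were alternatives; edgeR called 1416 genes lower and 1001 higher. The titles and genotype labels number the replicates as biological; whether pools were raised apart is not stated, so p-values measure the spread between these libraries. On simulated counts for 10969 genes of which 200 were given a log2 change of 2, limma found 140 with 11 other calls, edgeR 136 with 10 and DESeq2 161 with 61. That change is larger than the change of any autophagy or lysosome gene that passed. The simulated libraries also held no control that stood apart. These counts therefore do not measure recovery or false calls for the genes described here. Positions and exon lengths are from Ensembl BDGP6.54, which has dm6 coordinates and holds 17710 of the identifiers. The genes and lists were chosen with earlier results of these data known. The rule for genes named in full took those that passed, those with the log2 fold change farthest from 0 in a step, and Atg1, Atg8a, ref(2)P, Syx17, Mitf, Lamp1, cathD and Cp1. Of the other pathway genes, it took up to 4 per list with the smallest adjusted p. Outside this rule, values are also given for tmod, Atg13, Atg14, Uvrag, Atg4b, Atg12, Atg10, Atg16, Atg8b, car, lt, Vps39 and Vps11. The same holds for Pi3K59F, ocn, DNaseII, Npc2h, Eip93F, foxo and mio.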

Additional observations from a re-analysis of the deposited data

How the results depend on the processing

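All 23 genes that fell kept a log2 fold change below 0 under each alternative, which for a single left-out library follows from groups that do not overlap. The number of the 35 genes that fell (23) was 18 to 27, within 1.5 times, under the pseudocounts of 0.1 and 10, no filter, a minimum mean of 50, quantile normalization, median centring and each count tool. Of the 23 genes themselves, 8 remained in limma without the trend, 17 with quantile normalization, 19 without a filter and 22 with a pseudocount of 10. It was 8 in limma without the trend and 0 with the replicate block. With a library left out it was 0 to 28, reaching 28 without mCherryRNAi replicate 1 and 0 in the other 5. The number that rose (0) was 1 without a filter (Atg8b), with quantile normalization and in DESeq2 (lt in both), and 0 to 1 with a library left out. Of the other pathway genes, 25 fell and 2 rose; these were 9 and 0 in limma without the trend, 0 and 0 with the replicate block, and 0 to 39 and 0 to 4 with a library left out. The number that rose was 1 with a pseudocount of 0.1, with a minimum mean of 50 and with quantile normalization, and 4 in DESeq2. Of all genes, 1418 fell and 1195 rose; these became 2301 and 2063 in DESeq2, 481 and 473 when limma ran without its trend, 0 and 0 with the replicate block, and 0 to 2739 and 0 to 2464 with a library left out. With median centring 36.1% of the calls among all genes were higher, against 45.7%. Mitf had a log2 fold change of 0.16 with quantile normalization, 0.015 in edgeR and 0.00073 in DESeq2, and -0.069 to 0.054 with a library left out. The cause of these changes was not tested.

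The values did not show a pairing of the libraries by replicate number. The deviations of same-numbered libraries from their group means correlated across genes at -0.06, 0.02 and -0.02, and not every library correlated best with its own number. With 3 libraries per group these correlations cannot settle whether same-numbered pools were handled together. With the replicate block 0 of the 35 genes and 0 of all tested genes passed in limma. Depth limits the lowest genes: Atg8b, listed at 0 in the controls, and Npc2h, with 1 control below the floor of 3 reads.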
